A study of Mus musculus with 12 samples.

Results

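The genes described here encode the proteins that sense broken DNA, signal from it and repair it. They are 42 symbols chosen by name from the 23238 gene symbols counted in mouse lung, with earlier results of these data known. They cover damage kinases, homologous recombination, end joining, the Fanconi anaemia pathway and excision repair. All 42 passed the filter on low counts and stand among the 16484 genes tested. RNA was sequenced from 12 lung samples in 4 groups of 3, namely lung without irradiation and lung taken 8, 11 and 14 days (d) after irradiation. The irradiated tissue was cut only from the irradiated areas. The sources used here do not give dose, strain, age or genotype, nor the region sampled in the controls. Samples of a group are numbered, but nothing says that they came from separate animals, so a p-value reflects the spread among these samples only, and that spread may be technical.

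A double-strand break is first bound by the MRE11-RAD50-NBS1 complex, which brings in the kinase ATM, while single-stranded DNA brings in ATR. These kinases activate CHK2 and CHK1, which halt the cell cycle, and they phosphorylate the histone H2AX around the break, which recruits MDC1, RNF8, RNF168 and 53BP1. Breaks are then rejoined directly by the Ku-dependent end-joining machinery, or copied from the sister chromatid by homologous recombination, which works in S and G2 phase. Much of this response runs through phosphorylation and ubiquitin, which RNA counts do not measure.

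Libraries held 19624554 to 27765751 counts. Defining lung markers were present, with mean levels in unirradiated lung of 21105 CPM (counts per 1000000, scaled for library composition) for surfactant protein C (Sftpc), 3585 CPM for the alveolar type 1 cell gene Ager and 1170 CPM for the endothelial gene Pecam1. The ribosomal RNA precursor Rn45s took up to 6.27% of counts, in 11 d replicate 2. In such bulk samples, fewer cells of a type and less RNA per cell cannot be told apart.

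Promoter windows are shown for members that carry a binding word of E2F, the factor family that drives genes of DNA synthesis. The search used 250 bases before to 50 bases after the start of transcription, from RefSeq (GRCm38.p6), which held a window for 31 of the 42 genes. The words were TTTCCCGC, TTTGGCGC and TTTCGCGC on either strand, and they are written in capitals below, on the gene's own strand, 5′ to 3′.
Chek2, chr5:110839803-110839882, plus strand: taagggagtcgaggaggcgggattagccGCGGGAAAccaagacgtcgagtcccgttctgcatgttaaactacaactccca
Bard1, chr1:71103147-71103212, minus strand: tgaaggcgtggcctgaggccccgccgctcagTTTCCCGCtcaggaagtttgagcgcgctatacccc
Xrcc6, chr15:82016289-82016368, plus strand: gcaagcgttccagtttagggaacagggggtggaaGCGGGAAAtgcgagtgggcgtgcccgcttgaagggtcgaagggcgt
Brca2, chr5:150522421-150522500, plus strand: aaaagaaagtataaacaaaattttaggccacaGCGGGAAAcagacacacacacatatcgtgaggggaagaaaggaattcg
Mdc1, chr17:35841418-35841497, plus strand: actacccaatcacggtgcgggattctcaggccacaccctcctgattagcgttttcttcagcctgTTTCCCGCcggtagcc
A word was found in 6 of the 31 members (these 5 and Rad51c), against 573 of 27025 genes with a window, or 2.12%. Of the 6, Chek2, Bard1 and Xrcc6 were higher after irradiation in the tests below, while Brca2, Mdc1 and Rad51c passed at no time. Among all 42 members, 15 were higher at 1 or more times. Brca1, Palb2, Rad54l, Mre11a, Xrcc5 and Polq, which were also higher, had windows without such a word. The part of E2F in these changes was not tested. The cell-cycle word TTTGAA was found in 5 of the 31 and in 20.2% of genes, and the word CCAAT in 16 of the 31 and in 41.1% of genes, both strands counted. A full p53 site, with its 2 parts fewer than 14 bases apart, was found in 0 of the 31 windows and in 0.074% of genes. These matches describe letters in these windows and are not binding sites.

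Over all members, the share that changed was close to that of the whole transcriptome, and rises outnumbered falls. At 8 d, 7 of the 42 genes were higher and 2 lower than without irradiation by edgeR's quasi-likelihood test, called where the adjusted p was below 0.05 with 3 libraries a group. That is 21.4%, where 23.6% of all genes tested were called, 13.0% higher and 10.6% lower. At 11 d, 15 were higher and 3 lower, or 42.9% against 37.2% of all genes (19.4% higher, 17.8% lower). At 14 d, 12 were higher and 4 lower, or 38.1% against 38.9% of all genes (20.0% higher, 18.9% lower). The median log2 change of the members was 0.12, 0.10 and 0.17 at the 3 times, where the median of all genes was 0.01, -0.01 and 0.01.

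In all, 19 members passed at 1 or more times, 15 only upwards and 4 only downwards, and 8 of them passed at all 3 times. Higher at every time were Brca1, Palb2, H2afx, Xrcc6, Parp1 and Polk, and lower at every time were Rad51d and Rrm2b. The 8 d calls were the least stable. Of the 9, only those of H2afx, Rad51d and Polk were kept under every alternative tried, and the count fell to 5 without unirradiated replicate 1, to 4 without unirradiated replicate 2 and to 4 in a fit of only those 2 groups. At 11 d, 12 of the 18 calls were kept under every alternative, and at 14 d 11 of the 16.

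**Figure D1:**
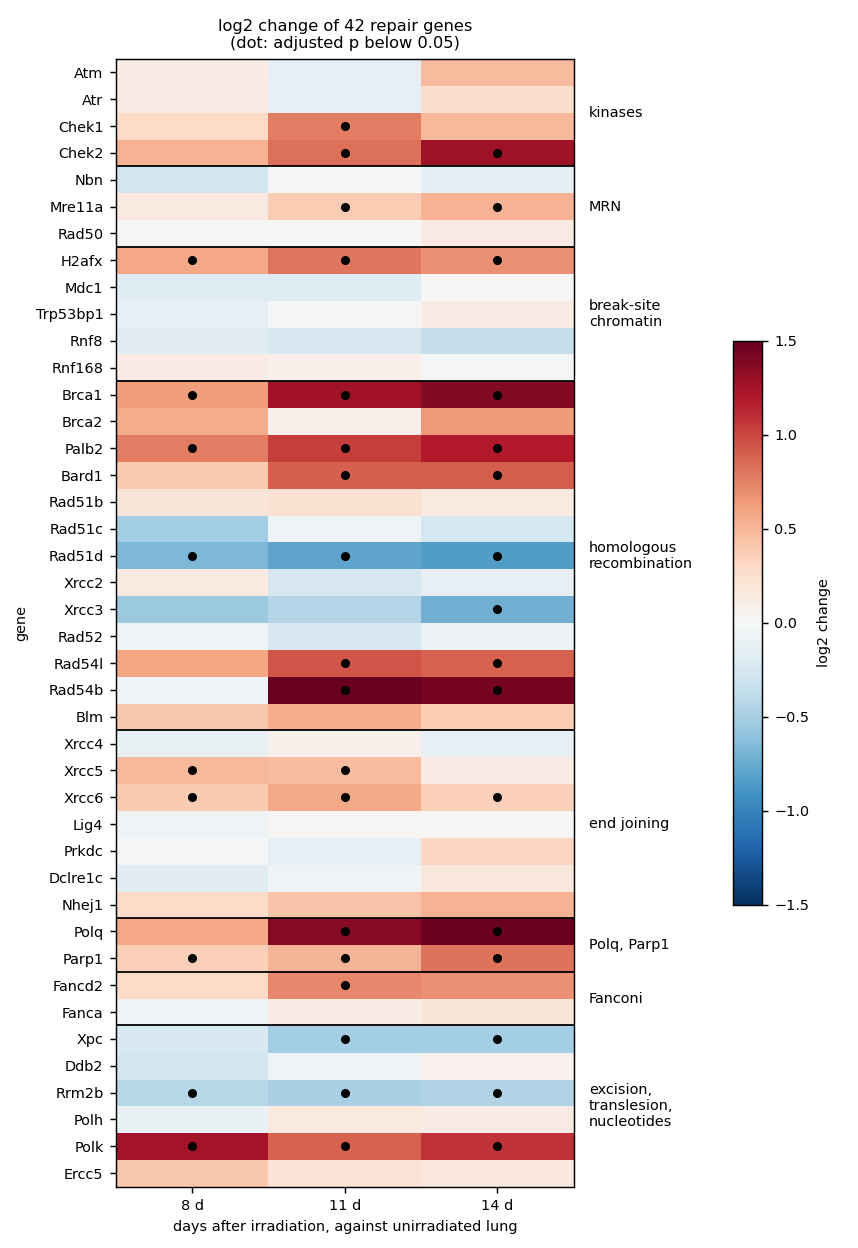
Log2 change of each of the 42 genes (rows, grouped by role) against unirradiated lung at 8, 11 and 14 d (columns), with colour from blue (lower) to red (higher) and a dot where the adjusted p was below 0.05. The homologous recombination block holds rises and also the falls of Rad51d and Xrcc3. Polq, Parp1 and Polk rise, while 23 rows carry no dot.

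Among the signalling kinases, Chek2 rose at 11 d and 14 d and Chek1 at 11 d, and Atm lay at the threshold at 14 d. Chek2, the checkpoint kinase activated by ATM (chromosome 5, 110839979 to 110874145, plus strand, GRCm38), stood at 6.44, 5.53 and 5.06 CPM in unirradiated lung, 6.56, 9.63 and 8.21 at 8 d, 11.4, 8.29 and 10.47 at 11 d, and 12.3, 15.0 and 13.9 at 14 d. Every irradiated library lay above all 3 unirradiated ones, and the 14 d libraries lay above every other library. The log2 change was 0.52 at 8 d (SE 0.18, adjusted p = 0.0518, not called), 0.83 at 11 d (SE 0.18, adjusted p = 0.00261) and 1.28 at 14 d (SE 0.18, adjusted p = 5.76e-05).

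Atm, the kinase of double-strand breaks, stood at 57.3, 46.1 and 50.2 CPM without irradiation, 65.5, 42.2 and 58.5 at 8 d, 58.1, 40.0 and 43.0 at 11 d, and 83.3, 64.7 and 65.6 at 14 d. The 14 d libraries lay above the unirradiated ones, with a log2 change of 0.48 (SE 0.18) that missed the threshold (adjusted p = 0.052). It passed with median-of-ratios scaling (adjusted p = 0.0495), a filter of at least 10 counts per library in 1 group (0.0491), DESeq2 (0.0356) and a fit of only the 2 groups (0.0197). Atr, the kinase of stalled forks, stood at 26.2, 29.2 and 30.0 CPM without irradiation, 32.1, 30.1 and 30.5 at 8 d, 28.4, 22.8 and 27.3 at 11 d, and 36.8, 33.5 and 32.1 at 14 d. Its 14 d libraries again lay above all unirradiated ones, with a log2 change of 0.26 (SE 0.12, adjusted p = 0.11). Chek1, the checkpoint kinase activated by ATR, went from a mean of 2.52 ± 0.398 CPM (SD, n = 3) to 4.28 ± 1.32 at 11 d, a log2 change of 0.77 (SE 0.27, adjusted p = 0.0384). That call was lost without any 1 of the 3 unirradiated libraries or without 11 d replicate 1 or 2 (adjusted p from 0.056 to 0.21), and without 11 d replicate 1 the log2 change was 0.505.

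In the complex that first binds breaks, 0, 1 and 1 of 3 genes were called at 8, 11 and 14 d. These are 0%, 33.3% and 33.3%, where 23.6%, 37.2% and 38.9% of all genes tested were called. Of this complex, only Mre11a passed. Mre11a, its nuclease, stood at 19.9, 17.3 and 17.4 CPM in unirradiated lung, 19.4, 23.5 and 17.6 at 8 d, 25.1, 24.3 and 21.8 at 11 d, and 26.5, 25.0 and 27.0 at 14 d. The groups overlapped at 8 d, whereas all 6 later libraries lay above the unirradiated ones, with log2 changes of 0.38 at 11 d (SE 0.13, adjusted p = 0.0372) and 0.52 at 14 d (SE 0.13, adjusted p = 0.00632). The 11 d call was lost without unirradiated replicate 2 or 3 or 11 d replicate 1 or 2 (adjusted p from 0.0924 to 0.116). Rad50, its ATPase, stood at 91.9, 67.1 and 98.6 CPM without irradiation, 97.5, 74.6 and 83.1 at 8 d, 90.1, 75.2 and 90.7 at 11 d, and 97.0, 91.7 and 92.0 at 14 d. Each irradiated group of Rad50 overlapped the unirradiated libraries. Nbn, the subunit that contacts ATM, stood at 40.4, 40.7 and 38.9 CPM, then 28.5, 39.1 and 31.7, then 43.0, 36.0 and 40.2, then 32.8, 34.8 and 41.8 in the same order of groups. It too overlapped them at every time. Per kilobase of exon, the ratio of Mre11a to Rad50 was 0.194 ± 0.0362 without irradiation and 0.250 ± 0.0109 at 14 d (SD, n = 3).

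Of 5 genes of the chromatin around a break, 1 was called at each time, the histone gene, which rose. That is 20.0%, where 23.6%, 37.2% and 38.9% of all genes tested were called at 8, 11 and 14 d. The readers and ligases were not called. H2afx, which encodes the histone H2AX (chromosome 9, 44334694 to 44336077, plus strand, a gene of 1 exon), stood at 7.23, 8.08 and 7.51 CPM without irradiation, 11.2, 11.2 and 11.7 at 8 d, 12.8, 13.9 and 13.2 at 11 d, and 11.8, 12.8 and 12.1 at 14 d. The unirradiated libraries lay below all 9 others, and spread within each group was small. Its log2 change was 0.58 at 8 d (SE 0.12, adjusted p = 0.00353), 0.80 at 11 d (SE 0.12, adjusted p = 0.000167) and 0.69 at 14 d (SE 0.12, adjusted p = 0.000443).

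Rnf8, the ubiquitin ligase that reads MDC1, stood at 40.3, 38.5 and 32.7 CPM without irradiation, 30.1, 39.2 and 30.6 at 8 d, 30.0, 35.4 and 29.4 at 11 d, and 30.1, 27.97 and 28.8 at 14 d. Its 14 d libraries were lower than every unirradiated one, with a log2 change of -0.36 (SE 0.14) that missed the threshold (adjusted p = 0.0538) and passed with DESeq2 (0.0427), in a fit of only the 2 groups (0.0422) and without unirradiated replicate 3 (0.0363). In the GENCODE M21 annotation 26.25% of its exon length is shared with another gene on the same strand, Gm28043, so its count is uncertain. Trp53bp1, which encodes 53BP1, the protein that steers breaks towards end joining, stood at 50.4, 44.1 and 49.6 CPM without irradiation, 46.2, 40.1 and 45.9 at 8 d, 47.4, 48.8 and 45.04 at 11 d, and 54.1, 54.6 and 47.3 at 14 d. Each irradiated group overlapped the unirradiated libraries, and 22.14% of its exon length lies opposite exons of Tubgcp4. The strand setting of the counting is not given, so reads of such opposed genes may be mixed. That holds for 14 members, among them Ddb2 (26.71% opposite Acp2). Mdc1, the adaptor that binds phosphorylated H2AX, and Rnf168, the second ligase, had log2 changes between -0.18 and 0.13 at the 3 times.

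Homologous recombination genes moved in both directions. Of 13, 2 were higher and 1 lower at 8 d, 5 higher and 1 lower at 11 d, and 5 higher and 2 lower at 14 d. These are 23.1%, 46.2% and 53.8% called, where 23.6%, 37.2% and 38.9% of all genes tested were called. The higher ones were Brca1, Palb2, Bard1, Rad54l and Rad54b, and the lower ones Rad51d and Xrcc3. Brca1, the ubiquitin ligase that promotes resection and recombination (chromosome 11, 101488764 to 101551955, minus strand), stood at 3.65, 2.73 and 3.83 CPM without irradiation, 4.92, 5.58 and 5.25 at 8 d, 9.42, 7.59 and 7.36 at 11 d, and 10.025, 8.26 and 8.22 at 14 d. No irradiated library fell into the unirradiated range, and the 11 d and 14 d libraries lay above those of 8 d. Its log2 change was 0.62 at 8 d (SE 0.18, adjusted p = 0.0235), 1.26 at 11 d (SE 0.18, adjusted p = 0.00011) and 1.37 at 14 d (SE 0.18, adjusted p = 3.23e-05). Without 8 d replicate 2, 8 d replicate 3 or unirradiated replicate 2, the 8 d call was lost (adjusted p from 0.0536 to 0.1).

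Rad54b, a DNA translocase of homologous recombination, stood at 0.791, 0.627 and 1.08 CPM without irradiation, 0.703, 0.630 and 1.08 at 8 d, 3.08, 1.92 and 2.02 at 11 d, and 1.98, 2.11 and 2.71 at 14 d. The 8 d libraries overlapped the unirradiated ones, and all 6 later libraries lay above both groups. The log2 change was -0.04 at 8 d (SE 0.34, adjusted p = 0.943), 1.49 at 11 d (SE 0.32, adjusted p = 0.00221) and 1.44 at 14 d (SE 0.32, adjusted p = 0.00229). These values rest on 14 to 73 counts per library. In addition, 39.08% of the gene's exon length (2068 bases) is shared with Fsbp on the same strand, which had a log2 change of 0.97 at 11 d (adjusted p = 0.0428), so the count of Rad54b is uncertain.

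Rad51d, a homologous recombination factor (chromosome 11, 82876434 to 82890614, minus strand), stood at 260, 252 and 221 CPM without irradiation, 171, 116 and 172 at 8 d, 127, 160 and 136 at 11 d, and 148, 147 and 115 at 14 d. Every irradiated library lay below all unirradiated ones. Its log2 change was -0.67 at 8 d (SE 0.16, adjusted p = 0.00851), -0.79 at 11 d (SE 0.16, adjusted p = 0.00185) and -0.84 at 14 d (SE 0.16, adjusted p = 0.000973). In unirradiated lung it had the highest level per exon length of the 42 genes, 71.2 CPM per kb, where the median was 3.70 and Xrcc4 came next with 17.9. Which exons hold its reads cannot be read from counts per gene, and no annotated gene shares its exons in GENCODE M21.

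Palb2, the partner that joins BRCA1 to BRCA2, rose from 1.69 ± 0.220 CPM to 2.87 ± 0.697 at 8 d, 3.46 ± 0.733 at 11 d and 3.84 ± 0.793 at 14 d (SD, n = 3), a log2 change of 1.19 at the last time (SE 0.25, adjusted p = 0.0019). Its 8 d call was lost without any 1 of the unirradiated libraries or without 8 d replicate 2 or 3 (adjusted p from 0.0641 to 0.176). Bard1, the obligate partner of BRCA1, had log2 changes of 0.39, 0.90 and 0.91 at the 3 times over 22 to 66 counts per library. Its 11 d and 14 d calls (adjusted p = 0.0385 and 0.0332) were each lost when any of 4 single libraries was left out, unirradiated replicates 1 and 3 in both cases, 11 d replicates 1 and 3, and 14 d replicates 1 and 2 (adjusted p from 0.079 to 0.146 at 11 d and from 0.0712 to 0.133 at 14 d). Rad54l, the translocase RAD54, rose by 0.95 at 11 d (adjusted p = 0.0142) and 0.88 at 14 d (adjusted p = 0.0188). The first of these calls was lost without 11 d replicate 1 (adjusted p = 0.0835), and the second without 14 d replicate 3 or unirradiated replicate 3 (adjusted p = 0.0797 and 0.0599).

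Xrcc3, another homologous recombination factor, fell by 0.72 on the log2 scale at 14 d (SE 0.22, adjusted p = 0.0154). Its unirradiated libraries stood at 28.4, 17.7 and 14.0 CPM and its 14 d libraries at 12.5, 12.3 and 11.6. Without unirradiated replicate 1, the highest of them, the log2 change was -0.39 and the call was lost (adjusted p = 0.109). Brca2, the breast cancer susceptibility gene whose product binds PALB2, had log2 changes of 0.56, 0.08 and 0.64 with wide errors (SE 0.31 to 0.32) and was not called. The remaining 5, which are the helicase gene Blm, the annealing factor Rad52 and Rad51b, Rad51c and Xrcc2, passed at no time.

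**Figure D2:**
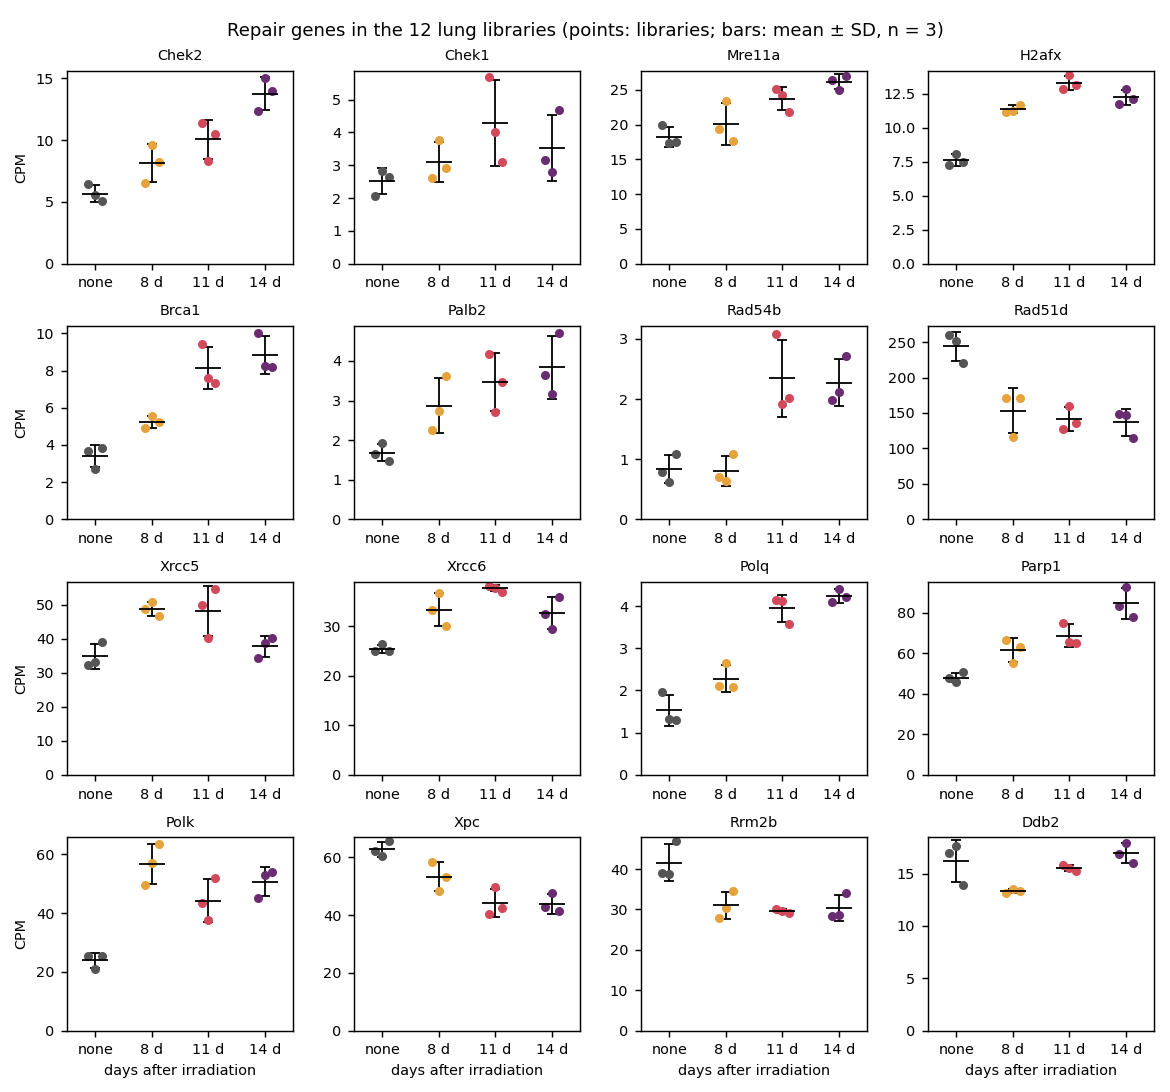
CPM of 16 repair genes in each library (points), with the mean and SD of 3 libraries as bars, for unirradiated lung (none) and 8, 11 and 14 d after irradiation; each axis starts at 0. Brca1, Polq and Rad54b stand higher at 11 and 14 d, Polk is already high at 8 d, and Rad51d, Xpc and Rrm2b are lower after irradiation.

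Of 7 end joining genes, 2 were called at 8 d, 2 at 11 d and 1 at 14 d, all higher. These are 28.6%, 28.6% and 14.3%, where 23.6%, 37.2% and 38.9% of all genes tested were called. The called genes encode the Ku ring, which acts in the first step. Xrcc6, which encodes Ku70, stood at 25.0, 26.4 and 24.9 CPM without irradiation, 33.3, 36.6 and 30.0 at 8 d, 38.2, 37.8 and 37.0 at 11 d, and 32.5, 29.4 and 35.8 at 14 d. All irradiated libraries lay above the unirradiated ones, with log2 changes of 0.39 (SE 0.12, adjusted p = 0.0308), 0.57 (SE 0.12, adjusted p = 0.0022) and 0.36 (SE 0.12, adjusted p = 0.0296). The 8 d call was lost without any 1 of the unirradiated libraries or without 8 d replicate 1 or 2, and the 14 d call without any 1 of the unirradiated libraries or without 14 d replicate 1 or 3 (adjusted p from 0.0537 to 0.102 and from 0.0536 to 0.116).

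Xrcc5, which encodes Ku80, the partner of Ku70 in the ring, stood at 32.4, 33.1 and 39.2 CPM without irradiation, 48.7, 50.8 and 46.8 at 8 d, 49.9, 40.2 and 54.6 at 11 d, and 34.4, 38.8 and 40.3 at 14 d. The 8 d and 11 d libraries lay above the unirradiated ones, and the 14 d libraries overlapped them. Its log2 change was 0.48 at 8 d (SE 0.13, adjusted p = 0.0182), 0.47 at 11 d (SE 0.13, adjusted p = 0.014) and 0.12 at 14 d (SE 0.13, adjusted p = 0.532). Leaving out unirradiated replicate 1 or 2 ended both calls, as did leaving out 11 d replicate 3 for the second (adjusted p from 0.055 to 0.0831). From 8 d to 14 d, neither Ku gene was called. Per kilobase of exon, the ratio of Xrcc5 to Xrcc6 was 1.78 ± 0.225 without irradiation and 1.91 ± 0.113, 1.67 ± 0.268 and 1.52 ± 0.177 at 8, 11 and 14 d (SD, n = 3), and the range at each time overlapped that of unirradiated lung.

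The later factors of end joining passed at no time. Prkdc, the kinase subunit that Ku recruits, stood at 34.7, 29.8 and 29.2 CPM without irradiation, 40.0, 20.03 and 31.9 at 8 d, 28.8, 28.4 and 28.4 at 11 d, and 44.6, 39.8 and 32.8 at 14 d. The 8 d libraries spread widest, and its largest log2 change was 0.32 at 14 d (SE 0.20, adjusted p = 0.223). Lig4, the ligase, had log2 changes of -0.06, 0.01 and 0.00 (SE 0.23 to 0.24). Xrcc4, its scaffold, Dclre1c, the nuclease Artemis, and Nhej1, the factor XLF, had log2 changes between -0.17 and 0.52.

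Polq and Parp1 serve a back-up route that joins ends through short matching stretches, and both rose. Polq, the polymerase of that route, stood at 1.96, 1.33 and 1.30 CPM without irradiation, 2.11, 2.66 and 2.08 at 8 d, 4.14, 4.12 and 3.58 at 11 d, and 4.09, 4.41 and 4.21 at 14 d. Every irradiated library lay above the unirradiated ones, and the 11 d and 14 d libraries lay above all of 8 d. Its log2 change was 0.58 at 8 d (SE 0.22, adjusted p = 0.0783, not called), 1.37 at 11 d (SE 0.22, adjusted p = 0.00025) and 1.47 at 14 d (SE 0.22, adjusted p = 9.12e-05).

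Parp1, which marks single- and double-strand breaks with poly(ADP-ribose), stood at 47.6, 45.8 and 50.5 CPM without irradiation, 66.3, 55.0 and 63.2 at 8 d, 75.1, 65.5 and 65.0 at 11 d, and 83.3, 92.8 and 77.8 at 14 d. Here too the irradiated libraries lay above all unirradiated ones, and those of 14 d were the highest. The log2 change was 0.36 at 8 d (SE 0.12, adjusted p = 0.0419), 0.51 at 11 d (SE 0.12, adjusted p = 0.00381) and 0.82 at 14 d (SE 0.12, adjusted p = 7.93e-05). The 8 d call was lost without any 1 of the unirradiated libraries or without 8 d replicate 1 or 3 (adjusted p from 0.0581 to 0.13). Parp1 remained far more abundant than Polq, with a ratio of CPM per kb of 71.9 ± 16.4 without irradiation and 44.0 ± 2.95 at 14 d (SD, n = 3).

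Fancd2, which is ubiquitinated when the Fanconi anaemia pathway meets a DNA crosslink, stood at 2.30, 1.84 and 3.54 CPM without irradiation, 3.56, 2.84 and 3.04 at 8 d, 5.75, 3.37 and 3.52 at 11 d, and 3.78, 4.45 and 4.09 at 14 d. Unirradiated replicate 3 lay among the irradiated libraries. The log2 change was 0.72 at 11 d (SE 0.27, adjusted p = 0.0475) and 0.68 at 14 d (SE 0.27, adjusted p = 0.0576), and the 11 d call was lost without 11 d replicate 1 or unirradiated replicate 1 or 2 (adjusted p from 0.136 to 0.27). Without 11 d replicate 1 the 11 d log2 change was 0.43. Fanca, a subunit of the ligase complex that modifies FANCD2, stood at 10.1, 10.7 and 8.74 CPM without irradiation, 10.7, 8.28 and 9.25 at 8 d, 12.04, 10.1 and 9.74 at 11 d, and 11.7, 12.1 and 9.596 at 14 d, with overlap throughout.

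The genes of excision repair, damage bypass and nucleotide supply held the strongest early rise and 2 falls. Polk, the translesion polymerase kappa (chromosome 13, 96480690 to 96542579, minus strand), stood at 25.2, 21.1 and 25.3 CPM without irradiation, 49.6, 57.0 and 63.4 at 8 d, 43.3, 37.5 and 51.9 at 11 d, and 44.95, 52.9 and 53.9 at 14 d. Each irradiated library was far above the unirradiated range. Its log2 change was 1.25 at 8 d (SE 0.15, adjusted p = 5.61e-05), the largest of the 42 at that time, 0.89 at 11 d (SE 0.15, adjusted p = 0.000355) and 1.08 at 14 d (SE 0.15, adjusted p = 4.72e-05). Polh, the polymerase that bypasses ultraviolet damage, had log2 changes between -0.09 and 0.15 and was not called.

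Xpc, the sensor of helix distortion in nucleotide excision repair, stood at 62.2, 60.5 and 65.6 CPM without irradiation, 58.5, 48.3 and 53.2 at 8 d, 40.3, 49.7 and 42.5 at 11 d, and 42.8, 47.8 and 41.3 at 14 d. All irradiated libraries lay below the unirradiated ones, with log2 changes of -0.23 at 8 d (SE 0.12, adjusted p = 0.187, not called), -0.51 at 11 d (SE 0.12, adjusted p = 0.00489) and -0.51 at 14 d (SE 0.12, adjusted p = 0.00385). Rrm2b, the ribonucleotide reductase subunit that supplies nucleotides outside S phase, stood at 39.1, 38.7 and 46.9 CPM without irradiation, 27.9, 30.4 and 34.7 at 8 d, 30.0, 29.6 and 29.2 at 11 d, and 28.5, 28.5 and 34.2 at 14 d. It too was below the unirradiated range in all 9 libraries, with log2 changes of -0.42 (SE 0.13, adjusted p = 0.0306), -0.49 (SE 0.13, adjusted p = 0.00944) and -0.45 (SE 0.13, adjusted p = 0.0134). Its 8 d call was lost without unirradiated replicate 1 or 3 or 8 d replicate 1 or 2, and its 14 d call without unirradiated replicate 3 or 14 d replicate 1 or 2 (adjusted p from 0.0529 to 0.115 and from 0.0502 to 0.0717).

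Xpc, Rrm2b and Ddb2, the partner that hands ultraviolet lesions to XPC, are known as p53-induced genes in human cells. Ddb2 stood at 17.0, 17.7 and 13.9 CPM without irradiation, 13.1, 13.5 and 13.3 at 8 d, 15.8, 15.5 and 15.2 at 11 d, and 16.9, 17.9 and 16.0 at 14 d. Its 8 d libraries were the lowest, by -0.28 on the log2 scale (SE 0.13, adjusted p = 0.127). It was called at no time. Of 15 other p53 target genes measured in the same libraries, 14 were higher at 8 d, 15 at 11 d and 13 at 14 d. Of all genes tested, 13.0%, 19.4% and 20.0% were higher at these times. Those 15 genes were listed with earlier results of these data known. Cdkn1a, the p53-induced cell cycle inhibitor, stood at 24.8 ± 4.86 CPM without irradiation and 286 ± 6.19 at 8 d (SD, n = 3). Xpc, Rrm2b and Ddb2 were not chosen as a full set of p53-linked members. The other members, among them Polk, which was higher at all 3 times, were not sorted by a link to p53. The part of p53 in the changes of the members was not tested. Ercc5, a nuclease of excision repair, had log2 changes of 0.41, 0.20 and 0.15 and missed the threshold at 8 d (adjusted p = 0.0635).

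**Figure D3:**
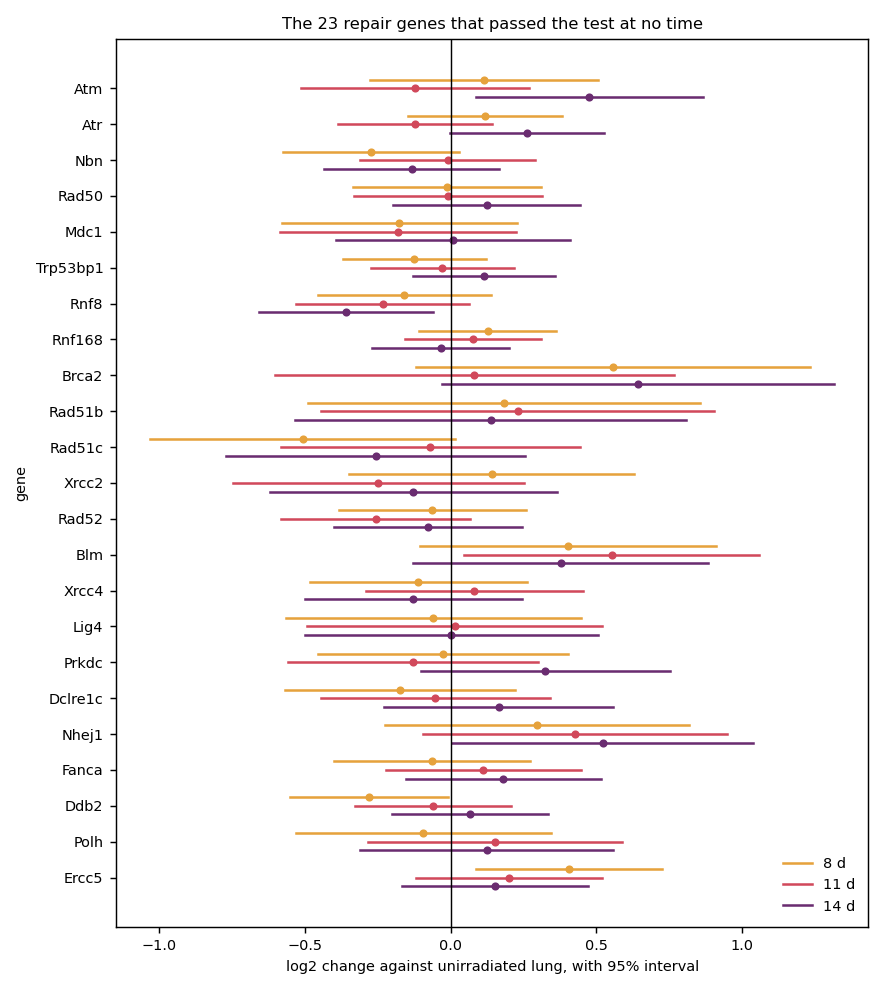
Log2 change (points) and 95% interval (lines) against unirradiated lung for the 23 repair genes that passed at no time, at 8 d (orange), 11 d (red) and 14 d (purple), with a vertical line at 0. The interval of Brca2 reaches from below 0 to 1.32 at 14 d, while those of Trp53bp1 and Rnf168 stay close to 0.

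For the 23 genes that passed at no time, the intervals show how large a change could have been missed. Their log2 changes ran from -0.51 to 0.56 at 8 d, from -0.26 to 0.55 at 11 d and from -0.36 to 0.64 at 14 d. The 95% intervals reached up to 1.32, for Brca2 at 14 d, and down to -1.03, for Rad51c at 8 d. These genes therefore are not shown to be unchanged, and Atm, Rnf8, Blm, Ercc5 and Dclre1c passed under 1 or more alternatives.

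Between the times after irradiation, few members were called. From 8 d to 11 d, 1 member was called, Rad54b, with a log2 change of 1.53 (SE 0.32, adjusted p = 0.0291), where 2.14% of all genes were called, 1.75% higher and 0.394% lower. That call was lost without any 1 of the 8 d libraries or without 11 d replicate 1 (adjusted p from 0.0548 to 0.175). From 11 d to 14 d, 0 members were called by edgeR (1.80% of all genes, 0.813% higher and 0.983% lower), 6 had an unadjusted p below 0.05 and DESeq2 called 2. From 8 d to 14 d, 5 were called, all higher, or 11.9% of the members against 15.4% of all genes (8.10% higher, 7.29% lower).

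These 5 were Rad54b with a log2 change of 1.48 (SE 0.32, adjusted p = 0.0066), Polq with 0.89 (SE 0.21, adjusted p = 0.0114), Chek2 with 0.76 (SE 0.18, adjusted p = 0.01), Brca1 with 0.75 (SE 0.18, adjusted p = 0.0107) and Parp1 with 0.46 (SE 0.12, adjusted p = 0.0173). In each of them the 14 d libraries lay above all 8 d libraries. The call of Brca1 was lost without 14 d replicate 1 (adjusted p = 0.061), that of Polq without 8 d replicate 3 (adjusted p = 0.0527) and that of Parp1 without 8 d replicate 2 or 14 d replicate 1 or 2 (adjusted p from 0.051 to 0.0712). Without 14 d replicate 1, 3 members were called in place of 5. Tested jointly for a difference between any of the 4 groups, 15 members passed, or 35.7% against 39.2% of all genes.

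To describe scarce and abundant members apart, the genes were split at the median of their mean CPM per kb over all 12 libraries. That mean includes the irradiated libraries, so the change of a gene had a part in its placing. Chek2, with 2.49 CPM per kb without irradiation, where the median of the members was 3.70, was placed among the more abundant 21. In the scarcer 21, between 0.295 and 3.91 CPM per kb, every called gene was higher, 2 at 8 d, 9 at 11 d and 7 at 14 d, and the median log2 change was 0.18, 0.38 and 0.49. The more abundant 21 had between 4.13 and 49.3 CPM per kb. Of these, 5 were higher and 2 lower at 8 d, 6 and 3 at 11 d, and 5 and 4 at 14 d. Their median log2 change was -0.06, -0.01 and 0.06. The share called was 9.52%, 42.9% and 33.3% in the scarcer 21 and 33.3%, 42.9% and 42.9% in the more abundant. Of all genes tested, 23.6%, 37.2% and 38.9% were called.

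Repair genes outside the 42 were counted in the same way, from lists of 134 genes in the files, of which 133 were tested. At 8 d, 13 were higher and 7 lower (15.0%), at 11 d 26 and 10 (27.1%) and at 14 d 24 and 13 (27.8%). These shares lay below those of all genes tested, of which 23.6%, 37.2% and 38.9% were called at the same times. The median log2 change of these other repair genes was 0.07, 0.09 and 0.03. The 8 d count fell to 10 without unirradiated replicate 1 and to 9 without unirradiated replicate 2, and the 14 d count to 23 without unirradiated replicate 2.

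The genes with the lowest joint p of each list moved in both directions. Clspn, the adaptor through which ATR activates CHK1, went from 4.68 CPM without irradiation to 10.1 at 11 d, a log2 change of 1.12 (SE 0.19, adjusted p = 0.000418). Dna2, a nuclease that resects break ends, had log2 changes of 0.44, 0.81 and 1.45 at the 3 times (adjusted p = 0.128, 0.00566 and 4.33e-05), and Brip1, the BRCA1-associated helicase, 0.43, 1.09 and 1.10, called at the later 2. Rrm1 and Rrm2, which encode other ribonucleotide reductase subunits, had log2 changes of 0.88 and 1.24 at 11 d (SE 0.13 and 0.19, adjusted p = 9.34e-05 and 0.000142), where Rrm2b had -0.49.

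Fen1, the flap endonuclease, rose by 0.72 at 11 d (adjusted p = 0.00259), and Ube2t, the conjugating enzyme for FANCD2, by 1.39 (adjusted p = 0.00932). Msh6, which recognises mismatches, was higher at all 3 times by 0.53, 0.42 and 0.43, and Pms1, a MutL homolog, rose by 0.72 at 11 d (adjusted p = 0.0157). Gtf2h1 and Gtf2h2, subunits of the repair factor TFIIH, rose by 0.43 and 0.62 at 11 d (adjusted p = 0.0177 and 0.0166), and Parp3 by 0.50 (adjusted p = 0.00405).

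Lower among them were Fancc, a subunit of the Fanconi anaemia ligase complex, with log2 changes of -0.56, -0.66 and -1.05, and Ung, the uracil glycosylase, with -0.76, -0.68 and -0.70, all called. Paxip1, a partner of 53BP1, had log2 changes of -0.54 at 8 d and -0.50 at 11 d (adjusted p = 0.0286 and 0.0265). Kat5, the acetyltransferase TIP60 that activates ATM, and Timeless, a fork protection factor, were called lower at 14 d with -0.49 and -0.41. Dntt, the template-independent polymerase of lymphocyte receptor joining, had log2 changes of 2.94, 2.97 and 4.08, over means of 0.295 CPM without irradiation and 5.11 at 14 d. Its 14 d libraries stood at 8.63, 2.49 and 4.21 CPM. Dntt is also 1 of the 6 thymocyte markers. Another of them, Themis, rose from 1.28 to 6.68 CPM at 14 d, with log2 changes of 1.71, 2.28 and 2.38 at the 3 times (adjusted p = 0.000225, 9.74e-06 and 3.74e-06). The other markers did not rise in this way. Cd1d1 was called lower at 8 d, with a log2 change of -0.61 (adjusted p = 0.036), and Ptcra and Rag2 were called at no time. Rag1, a defining gene of those cells, had means between 0.0120 and 0.127 CPM in the 4 groups.

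**Figure D4:**
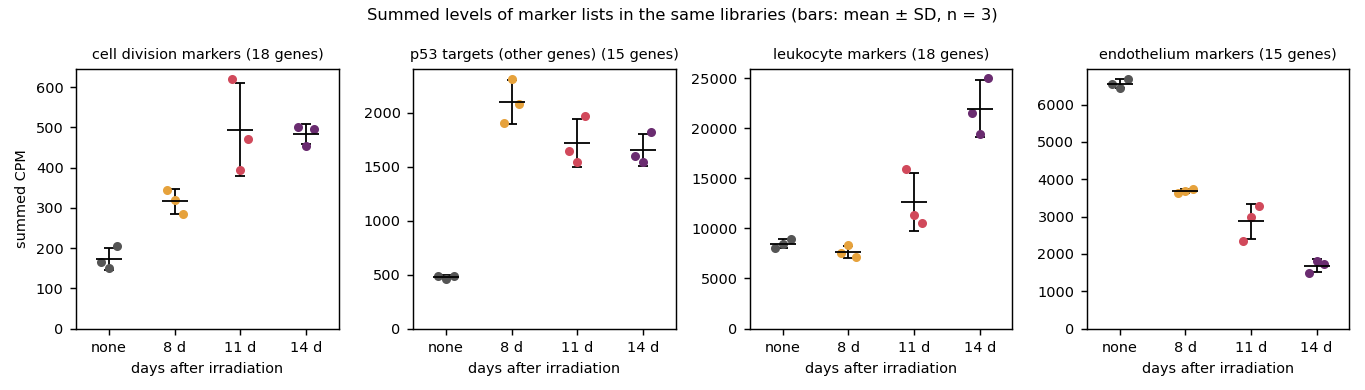
Summed CPM of 4 marker lists in each library (points) with mean and SD of 3 libraries (bars), for unirradiated lung (none) and 8, 11 and 14 d after irradiation; each axis starts at 0. Cell division and p53 target lists have higher sums at all 3 times, the leukocyte list at 11 and 14 d but not at 8 d, and the endothelial list has lower sums throughout.

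Markers of dividing cells and of several cell types moved in the same libraries as the repair genes. Of 18 cell division markers, 12 were higher at 8 d and all 18 at 11 d and 14 d, and their summed level ran from 149.78 to 203.9 CPM without irradiation, from 284 to 345 at 8 d, from 393 to 620 at 11 d and from 455 to 499.93 at 14 d. Mki67, a marker of cycling cells, went from 38.9 ± 5.38 CPM to 69.5 ± 12.96, 117 ± 40.7 and 145 ± 11.9 at the 3 times (SD, n = 3). The highest sum of this list, 620 CPM, was that of 11 d replicate 1. Among members called higher at 11 d, Chek1, Chek2, Mre11a, Brca1, Palb2 and Rad54l were also highest at 11 d in that library. So were Rad54b, Xrcc6, Polq, Parp1 and Fancd2. H2afx was lowest there (12.8 CPM). Bard1, Xrcc5 and Polk were highest at 11 d in replicate 3 (2.54, 54.6 and 51.9 CPM). Replicate 1 also had the highest 11 d sum of the leukocyte markers below (15958 CPM). Its sums of endothelial and alveolar epithelial markers were the lowest at 11 d (2339.6 and 21694 CPM).

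Of 18 leukocyte markers, 15, 14 and 15 were higher at the 3 times, and their sum lay between 8040 and 8913 CPM without irradiation, between 7100 and 8326 at 8 d, between 10532 and 15958 at 11 d and between 19446 and 24997 at 14 d. Ptprc, the CD45 gene of all leukocytes, had log2 changes of 1.23, 1.64 and 1.97. Of 15 endothelial markers, 10, 14 and 15 were lower, and their sum went from 6449 to 6686 CPM without irradiation to 1497 to 1818 at 14 d. Of 14 alveolar epithelial markers, 5, 8 and 9 were lower and 2 were higher at 11 d, with sums of 37270 to 41619 CPM and 20182 to 21895. Skeletal muscle markers, 8 genes, summed to between 4.67 and 12.4 CPM over the 12 libraries, and thymocyte markers, 6 genes, to between 12.6 and 27.9 CPM. The part of dividing cells and of these cell types in the changes of the repair genes was not tested.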

How the data were processed

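The authors deposited counts per gene symbol for 12 libraries. Per the submitters' processing notes they aligned reads with TopHat to mm10. No version of it, counting program, annotation or strand setting is given in the sources used here. Trizol RNA went into NEBNext Ultra II Directional libraries, per the labels' protocols. Repeated symbols (35, on 79 lines) were summed to 23238, of which 22197 matched GENCODE M21 (GRCm38), the source of coordinates and exon lengths.

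All 12 samples entered 1 fit with edgeR 4.0.16 (R 4.3.3, quasi-likelihood F test), after its default filter on low counts and TMM scaling. P-values were adjusted by Benjamini-Hochberg over 16484 genes and called below 0.05. The SE was taken from F and the log2 change, and CPM use the scaled library sizes. Between 19624554 and 27765751 counts per library set the precision. The fit was tested on simulated data.

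The members and lists were chosen with earlier results of these data known. Values in every sample are given for up to 3 members per role with the lowest joint p, and for other lists up to 2 genes. Chek1, Xrcc3 and Ddb2, and single facts of other members, were added after their values were seen. The settings varied were the scaling (median of ratios, or library size alone), Rn45s and haemoglobin genes left out, 2 other filters, DESeq2 1.42.0, limma-voom (limma 3.58.1), only the groups compared, a replicate block and each library left out.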

Additional observations from a re-analysis of the deposited data

Results flagged for a closer look

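The effect of irradiation differed between times for 5 of the 42 genes, by the edgeR quasi-likelihood test of the difference between irradiated groups, which also equals the difference of their changes against the shared unirradiated libraries. Rad54b was higher at 11 d than at 8 d by 1.53 on the log2 scale (adjusted p = 0.0291, n = 3 per group) and at 14 d than at 8 d by 1.48 (adjusted p = 0.0066). From 8 d to 14 d Polq differed by 0.89 (adjusted p = 0.0114), Chek2 by 0.76 (adjusted p = 0.01), Brca1 by 0.75 (adjusted p = 0.0107) and Parp1 by 0.46 (adjusted p = 0.0173). For 14 d against 8 d, 11.9% of the members were called, where 15.4% of all genes tested were. For 11 d against 8 d these shares were 2.38% and 2.14%. Only the calls of Chek2 and Rad54b at 14 d were kept under every alternative. The calls of Polq, Brca1 and Parp1, and that of Rad54b at 11 d, were each lost without 1 or more single libraries. Single libraries were not checked for standing apart within a group, since each group holds 3.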

How the results depend on the processing

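Of 49 called changes of single members over the 6 comparisons, 28 were kept under every alternative and 21 were lost under 1 or more, and 0 changes reversed. For members at 8 d, a fit of only the 2 groups compared called 4 in place of 9. From 8 d to 11 d DESeq2 called 3 members and a fit of only the 2 groups 0, in place of 1. From 11 d to 14 d DESeq2 called 2, in place of 0. Leaving out 1 library gave 4 to 8 members at 8 d, 13 to 17 at 11 d, 13 to 15 at 14 d, 0 to 1 from 8 d to 11 d, 0 to 1 from 11 d to 14 d, 3 to 6 from 8 d to 14 d, and 12 to 17 for any difference. For the other repair genes it gave 9 to 16, 26 to 30 and 23 to 32 at the 3 times. The cause was not tested. Whether the replicate numbers pair the samples is not stated. Of 18 same-numbered pairs, 5 had deviations correlated over 0.1 (range -0.35 to 0.29), and pairs of unlike numbers ran from -0.44 to 0.46. With 3 samples per group these values cannot decide whether samples were paired. With the replicate number as a block, 1 member was called from 11 d to 14 d in place of 0, 7 at 8 d in place of 9 (Palb2 and Parp1 lost), 15 at 11 d in place of 18 (Chek1, Bard1 and Fancd2 lost) and 16 at 14 d as before, with Atm gained (adjusted p = 0.00847) and Bard1 lost. Genes of few counts, such as Rad54b, Bard1 and Rad51b, had wide errors, so smaller changes in them were not detectable at this depth. Brca2, with 67 to 193 counts per library, also had a wide error (SE 0.32 at 8 d).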
